A study of Mus musculus with 8 samples.

Results

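Injected control embryos of a Trim-away experiment in the mouse were compared with embryos that had not been manipulated. The members were chosen by their labels: 4 RNA-seq libraries of the buffer group (buffer libraries 1 to 4) and the only non-manipulated library, together 5 of the 8 libraries of the series. The ZP3 Trim-away libraries were not used. All embryos were wild-type, of B6C3F1 x CD1 background, collected as fertilized oocytes from the oviducts of mated females after hormone treatment and kept in KSOM medium. The buffer embryos were injected at 15 h post hCG with mCherry-Trim21 mRNA (0.2 mg/mL), oregon green dextran beads (OGDB, a fluorescent marker of injection; 0.02 mg/mL) and the buffer in which the ZP3 antibody is supplied. The study's methods state another hour and other concentrations. The study's text also divides the injected pools between the buffer and ZP3 Trim-away groups in other numbers than the labels, which were followed here, so values without each buffer library in turn are given where they change a result. The non-manipulated embryos received none of these and were labelled untreated. Both groups were labelled E1.5, and RNA was extracted about 24 h after the injections. Each library was made from a pool of whole embryos. Needle, mRNA, dextran and antibody buffer were given together, so their contributions cannot be told apart. There was 1 pool without injection, so that group has no replicate error. Nothing in the labels says that the 4 buffer pools came from separate matings, and p-values measure only the spread between these libraries.

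The mouse oocyte fills its cytoplasm with mRNAs while it grows, falls silent before ovulation, and lives on these stores through fertilization. Around the first cleavage the embryonic genome is activated: the stored mRNAs are cleared, and genes of the 2-cell stage such as the Zscan4 family are transcribed for a short time. TRIM21 is a cytosolic antibody receptor and ubiquitin ligase, and in Trim-away an excess of it, supplied here as mRNA, sends an antibody together with its target to the proteasome. Without an antibody, as in the buffer group, the extra TRIM21 has no such target. The comparison with non-injected embryos was made in the study to see whether the injected mRNA had been delivered. The study also reports that buffer and non-injected embryos did not separate in a principal component analysis. From this it takes the effect of microinjection itself on gene expression to be negligible. That statement was not tested here.

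Total counts were 17615416 to 22427747 in the buffer libraries and 22248022 in the non-manipulated library. Genes with at least 1 count numbered 14841 to 17389 in the buffer libraries and 17422 in the non-manipulated library. Levels are given as CPM (counts of a gene per 1e6 counts of its library, after TMM scaling over the 5 libraries), and the 14066 genes that averaged 1 CPM or more were tested. The libraries held the RNA of 2-cell embryos: of 34 genes listed for that stage, 32 to 33 had counts in each buffer library and 34 in the non-manipulated library. The stored oocyte transcripts summed to 58569 to 90866 CPM in the buffer libraries and 51291 CPM in the non-manipulated library. Markers of cells that could travel with the embryos were scarce. Of 17 cumulus cell markers, 9 were at 0 in all 5 libraries (among them Has2, Ptx3, Fshr and Amh). The list summed to 1.29 to 39.5 CPM in the buffer libraries and 1.06 CPM in the non-manipulated library. Its highest member was Tnfaip6 in buffer libraries 1, 2 and 3 (21.4, 1.20 and 5.50 CPM) and Star in buffer library 4 (11.5 CPM). In the non-manipulated library the highest was Col1a2 (0.572 CPM). Of 14 spermatozoon markers, 5 were at 0 in all libraries, including the transition proteins Tnp1 and Tnp2, and the list summed to 28.6 to 126 CPM in the buffer libraries and 80.0 CPM in the non-manipulated library, nearly all from Ldhc and Odf2. Of 10 oviduct markers, Wfdc2 and Foxj1 were at 0, and Epcam, which the early embryo also transcribes, gave most of the 319 to 376 CPM in the buffer libraries and 301 CPM in the non-manipulated library. Of 11 blood markers, 5 were at 0, and the list summed to 9.06 to 16 CPM against 13.4 CPM.

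Trim21 was the gene that set the groups apart most clearly. It measured 2466, 2798, 8834 and 953 CPM in buffer libraries 1, 2, 3 and 4, and the non-manipulated library had 0 counts. All 4 injected pools lay far above the pool without injection. The buffer mean was 3763 ± 3475 CPM (SD, n = 4), and Trim21 took 0.254%, 0.276%, 0.917% and 0.0884% of the counts of buffer libraries 1 to 4. A count of 0 allows up to 0.132 CPM (3 counts of this library, counting error only), so the level even of buffer library 4 was at least 7223-fold higher. Without buffer library 4 this bound was 14.20 on the log2 scale in place of 12.82. An exact two-sided permutation test of log2 CPM over the 5 possible splits gave p = 0.2, the smallest p that 4 libraries against 1 can give. The injected pools also differed among themselves: buffer library 3 carried 9.27 times as much Trim21 RNA as buffer library 4. The relative spread (coefficient of variation, SD divided by the mean) was 0.92. It was the widest among genes with a buffer mean of at least 100 CPM, leaving out predicted models, clone names and Rik names. The measure counts reads on the mouse gene, and RNA of the injected message and of the embryo's own gene add up in it. The coding sequence of the gene opens with the stretch below, shown because reads over it are counted for Trim21 whichever mRNA they come from, as far as the injected message shares it. It lies at chr7:102564000-102564089 (GRCm38, minus strand) in exon 3 of transcript Trim21-201, whose coding sequence has 1386 bases without the stop codon, and capitals mark the start codon.
Trim21: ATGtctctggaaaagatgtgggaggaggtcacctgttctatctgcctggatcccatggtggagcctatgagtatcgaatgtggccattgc

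The genes of the zona pellucida, the coat that surrounds the egg, were read out next because ZP3 is the target of the antibody that the buffer embryos did not receive. Zp3, a zona protein studied as a receptor for sperm, measured 108, 146, 123 and 107 CPM in buffer libraries 1 to 4 and 102 CPM in the non-manipulated library, which lay just under the lowest buffer value (1.04-fold) and inside the range with CPM of plain totals. Zp2, its partner in the zona filaments, measured 20.5, 25.2, 40.3 and 23.9 CPM in the buffer libraries and 2.73 CPM in the non-manipulated library, 7.52-fold below the lowest of them. Zp1, which cross-links the filaments, measured 29.1, 56.3, 6.10 and 9.67 CPM in the buffer libraries and 18.8 CPM in the non-manipulated library, inside their range. Zp3 thus varied little over all 5 pools, and the value of Zp2 stood apart in the embryos without injection.

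Over all genes tested, the non-manipulated library lay above all 4 buffer libraries for 3061 genes (21.8%) and below all 4 for 2289 genes (16.3%). It lay at least 2-fold above the highest buffer library for 736 genes (5.23%) and at least 2-fold below the lowest for 777 genes (5.52%). A library with 3 counts or fewer was set to 3 counts for these folds. The genes at least 2-fold above were mostly rare transcripts, with a median mean level of 3.24 CPM and a median fold of 3.39. Of these 736 genes, 467 had no count in at least 1 buffer library and 89 had none in any of the 4, while 601 were protein coding. The genes at least 2-fold below had a median mean level of 9.27 CPM and a median fold of 5.22. Of these 777 genes, 202 had no count in the non-manipulated library and 636 were protein coding. A gene absent from the buffer libraries could pass the level for testing only through the non-manipulated library. Over the 13992 genes with a buffer mean of at least 1 CPM, a filter chosen after seeing the data, 2619 (18.7%) lay above and 2324 (16.6%) below, 382 (2.73%) at least 2-fold above and 786 (5.62%) at least 2-fold below. The counts also move with the libraries used: the number at least 2-fold below was 1224 without buffer library 1 and 1184 without buffer library 2, and the number at least 2-fold above was 1136 without buffer library 3.

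The edgeR quasi-likelihood test, which has to assume that the lone library varies like the buffer libraries, called no gene. With Benjamini-Hochberg adjustment over 14066 genes, 0 genes were higher and 0 lower (0%), and the smallest adjusted p was 0.769. At an unadjusted p under 0.05 there were 270 genes (1.92%) with higher and 457 (3.25%) with lower values in the non-manipulated library. The limma-voom method also called 0 genes, with 1010 higher and 95 lower at an unadjusted p under 0.05. DESeq2 called 12 genes higher and 596 lower among 13549 genes with an adjusted p. Of its 608 calls, 359 had no count in the non-manipulated library and 377 lay outside the buffer range. Trim21, whose mRNA was injected, was called by DESeq2 but not by edgeR or limma-voom. A lack of calls thus does not show that the libraries were alike. So the values below describe where the non-manipulated library lay and are no test of injection. The biological coefficient of variation that edgeR estimated was 1.25.

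Every library of the 5 lay at an end of the range for many genes. The non-manipulated library was the highest or lowest of the 5 for 38.0% of the genes, and buffer libraries 1 to 4 for 38.2%, 37.6%, 31.6% and 36.4%. Buffer library 1 lay at least 2-fold above the other 4 libraries for 750 genes, buffer library 2 for 744, buffer library 3 for 750 and buffer library 4 for 470, beside 736 for the non-manipulated library. The numbers at least 2-fold below the others were 902, 906, 359 and 798 for buffer libraries 1 to 4, beside 777. The 2-fold counts of the non-manipulated library thus lay inside the range of counts that each injected pool gave against the rest. Its share of genes highest was the largest of the 5, at 21.8% against 18.7% to 20.7% for the buffer libraries. Among 7385 genes that averaged 10 CPM or more it gave 159 genes at least 2-fold above, against 60 to 145 for the buffer libraries, and 357 below, against 175 to 488.

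**Figure D1:**
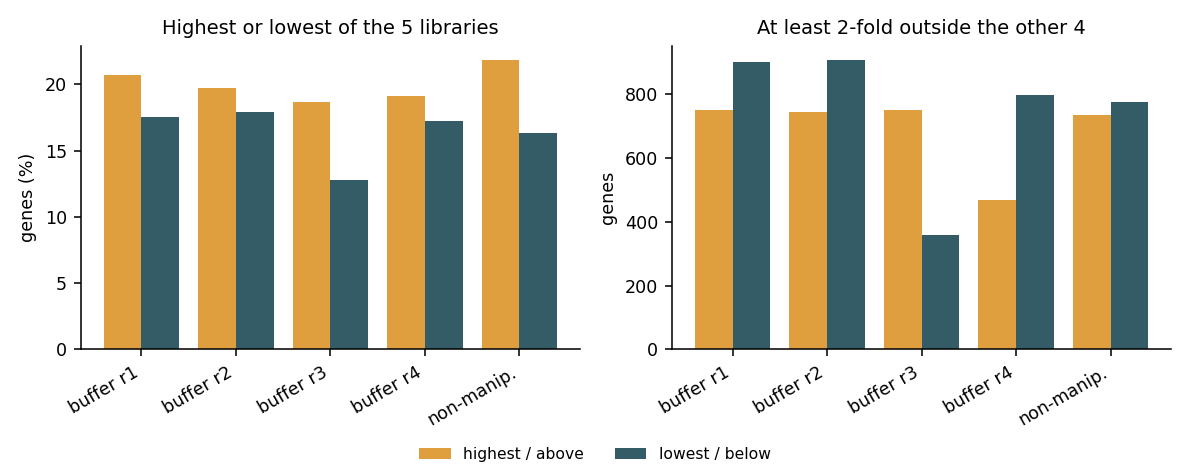
Bars give, for each of the 5 libraries, the percentage of 14066 genes for which it was the highest or the lowest (left) and the number of genes for which it lay at least 2-fold above or below the other 4 (right). The non-manipulated library was the highest for 21.8% of the genes, the largest share, against 18.7% to 20.7% for the buffer libraries. It was the lowest for 16.3%, against 12.8% to 17.9%.

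Genes that were missing from a library while the other 4 each had at least 10 CPM were found for every library. There were 22 such genes for buffer library 1, 13 for buffer library 2, 4 for buffer library 3, 11 for buffer library 4 and 13 for the non-manipulated library. Besides Trim21, those missing from the non-manipulated library included Psmd10, Bik, Nlrc4, Cmpk2, Serpinb12 and Tmem19, and, named after their values were seen, Erap1 (a peptidase that trims antigens), Chrnb1 (an acetylcholine receptor subunit), Timm8a2 and H2-Bl. Those missing from buffer library 1 included Dld, a subunit of pyruvate dehydrogenase, which measured 82.7, 48.5, 79.8 and 14.7 CPM in buffer libraries 2, 3 and 4 and the non-manipulated library, and Rfc4, a subunit of the clamp loader of DNA replication, which measured 40.3, 33.2, 21.9 and 20.1 CPM there. Traf2, a signalling adaptor, was missing from buffer library 2 at 34.8, 22.3, 24.4 and 21.7 CPM in the others. These examples were also picked after their values were seen. A transcript well above 10 CPM could thus be missing from an injected pool as well as from the pool without injection.

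The 12 genes farthest above the buffer range were taken from those averaging 10 CPM or more over the 5 libraries, leaving out predicted gene models, clone names and Rik names. They were chosen for lying outside, so their gap is no finding, and 8 of the 12 had a buffer mean under 10 CPM and reached that level only through the non-manipulated library. They were led by Pdcd6, a calcium-binding protein that recruits membrane repair factors. It measured 9.99, 8.34, 1.16 and 7.40 CPM in buffer libraries 1 to 4 and 48.2 CPM in the non-manipulated library, 4.82-fold above the highest of them. Rnf213, a very large ubiquitin ligase, followed at 13.6, 6.23, 15.9 and 16.7 CPM against 73.0 CPM (4.37-fold). In both, buffer values within the group differed by more than 2-fold. Primpol, which restarts DNA synthesis at damaged sites, measured 2.09, 13.4, 12.9 and 11.9 CPM against 54.8 CPM (4.10-fold), with buffer library 1 low. Ampd3, an AMP deaminase, measured 7.28, 4.99, 0.558 and 7.77 CPM against 33.0 CPM (4.25-fold), with buffer library 3 low. Mrpl35, of the large subunit of the mitochondrial ribosome, measured 2.28, 3.93, 9.24 and 5.38 CPM against 37.8 CPM (4.10-fold), and without buffer library 3 its log2 distance from the range was 2.81 in place of 2.03. The buffer values of these genes thus differed several-fold among themselves.

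Quality control of translation was represented by Zfp598, a ubiquitin ligase that marks collided ribosomes, at 0.238, 0.527, 7.22 and 9.48 CPM in the buffer libraries and 37.9 CPM in the non-manipulated library (3.99-fold). Kdsr, an enzyme of sphingolipid synthesis, measured 15.8, 8.01, 15.1 and 3.85 CPM against 63.1 CPM (3.98-fold). Mavs, the mitochondrial adaptor of RNA sensing, measured 6.95, 9.35, 1.93 and 6.73 CPM against 35.4 CPM (3.79-fold). Gnl1, a predicted GTPase, measured 9.47, 10.1, 6.49 and 8.14 CPM against 39.8 CPM (3.94-fold) and had the tightest buffer values of the 12 (coefficient of variation 0.188). Fam185a measured 17.4, 15.6, 7.04 and 14.9 CPM against 68.7 CPM (3.95-fold). Wdr72 and Lrrc49 rested on uneven buffer libraries. Wdr72 had counts in buffer library 1 (10.1 CPM) and none in the other 3, against 43.2 CPM. Lrrc49, of the tubulin polyglutamylase complex, measured 0.0476, 13.2, 4.08 and 2.69 CPM against 49.9 CPM. The log2 distance of Wdr72 from the range was 2.10, and 7.88 without buffer library 1, and that of Lrrc49 was 1.92, and 3.62 without buffer library 2.

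**Figure D2:**
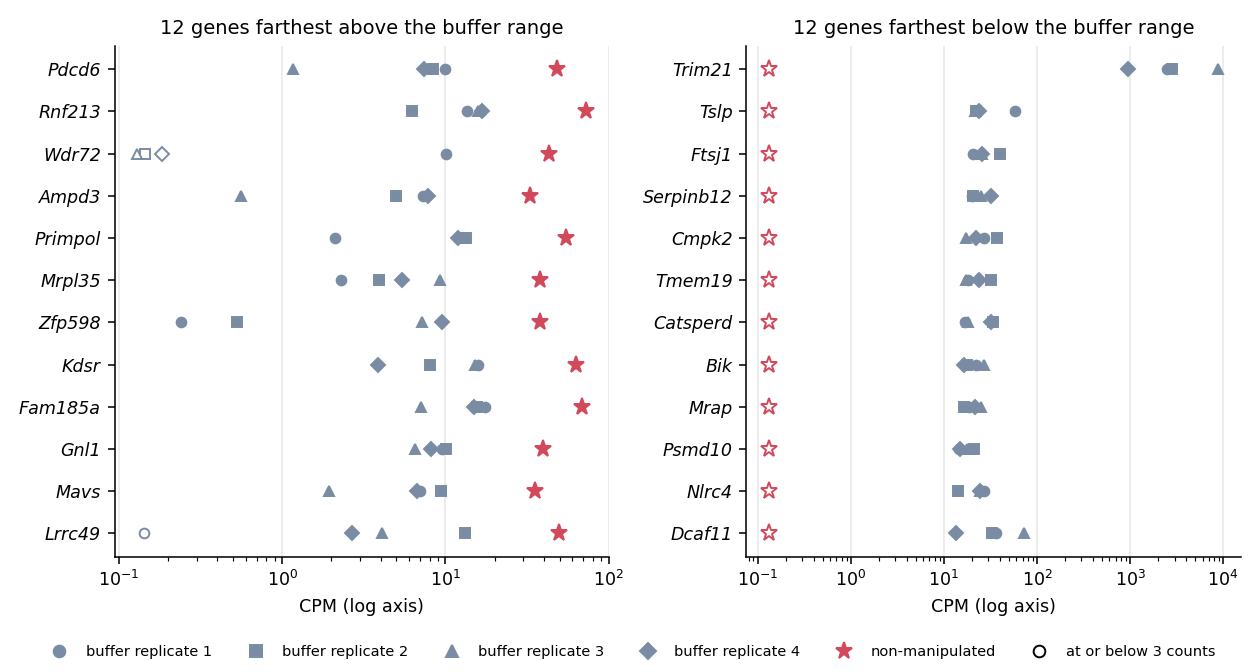
Points give CPM on a log axis in each buffer library (grey) and in the non-manipulated library (red star) for the 12 genes, predicted models left out, farthest above (left) and below (right) the buffer range. Open symbols mark libraries with 3 counts or fewer, drawn at the level of 3 counts (0.132 CPM in the non-manipulated library). On the left the stars lie at 33.0 to 73.0 CPM, and on the right all stars are at 3 counts or fewer.

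The genes farthest below the buffer range, chosen in the same way, were, after Trim21, transcripts of moderate level with 0 to 3 counts in the non-manipulated library. The rule left out predicted models that also had 0 counts there, such as Gm4971 and Gm10699. With 0 counts, only a lower bound of the fold exists. Serpinb12, a protease inhibitor of the serpin family, measured 19.8, 20.4, 24.8 and 32.0 CPM in buffer libraries 1 to 4, so every injected pool was at least 150.0-fold higher. Cmpk2, a mitochondrial nucleotide kinase known as an interferon-induced gene, measured 27.1, 37.5, 17.5 and 22.1 CPM (at least 132-fold). Tmem19 measured 18.4, 31.7, 17.3 and 23.7 CPM (at least 131-fold). In each of these the 4 buffer values differed by at most 2.14-fold among themselves, and the non-manipulated library had no count. Bik, a death-promoting member of the Bcl2 family, measured 21.9, 17.8, 27.2 and 16.6 CPM (at least 126-fold). Psmd10, an assembly chaperone of the proteasome, measured 14.6, 21, 17.7 and 15.0 CPM (at least 110-fold). Nlrc4, an inflammasome receptor, measured 26.7, 14.3, 24.4 and 24.2 CPM (at least 108-fold), with a log2 distance of -7.51 in place of -6.76 without buffer library 2. The spread among the injected pools was small for Psmd10 in particular, with a coefficient of variation of 0.173.

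The other 5 genes had 1 to 3 counts in the non-manipulated library, so the ratio of the lowest buffer library to it is given with an exact 95% binomial interval that covers counting error only. Tslp, a cytokine of epithelia, measured 58.1, 22.4, 21.8 and 23.9 CPM in the buffer libraries and had 1 count, a ratio of 496 (88.6 to 19634). Ftsj1, a methyltransferase of tRNA, measured 20.8, 40.4, 25.7 and 25.9 CPM and had 1 count, a ratio of 473 (84.4 to 18714). Mrap, an accessory protein of the ACTH receptor, measured 18.5, 16.4, 25 and 21.4 CPM and had 2 counts, a ratio of 186 (51.2 to 1546). The intervals are wide, and they do not account for the choice of these genes by the same counts. Dcaf11, a substrate receptor of cullin ubiquitin ligases, measured 35.9, 32.6, 72.9 and 13.3 CPM and had 2 counts, a ratio of 152 (41.5 to 1260). Without buffer library 4 the log2 distance of Dcaf11 was -7.96 in place of -6.66. Catsperd, a subunit of the sperm calcium channel, measured 16.7, 34.0, 18.0 and 32.0 CPM and had 3 counts, a ratio of 126 (42.8 to 615).

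Abundant transcripts lay closer to the buffer values. Of 1968 genes that averaged 100 CPM or more, 418 (21.2%) lay above and 392 (19.9%) below the buffer range, but the median distance from the buffer mean was 0.27 on the log2 scale, and 4 lay at least 2-fold above and 11 at least 2-fold below. Against the other 4 libraries, the buffer libraries gave 0 to 2 such genes above and 7 to 25 below. The 15 genes of the non-manipulated library were named after their values were seen. Ddx4, the germ cell RNA helicase also called Vasa, measured 145, 103, 161 and 173 CPM in the buffer libraries and 379 CPM in the non-manipulated library (2.19-fold). Cacybp, an adaptor of ubiquitin ligases, measured 89.5, 66.0, 91.1 and 55.7 CPM against 208 CPM (2.28-fold). Cd2ap, an adaptor of the actin cortex, measured 101, 93.5, 56.9 and 95.8 CPM against 223 CPM (2.21-fold), and Ivns1abp measured 119.7, 87.4, 76.1 and 72.3 CPM against 251 CPM (2.10-fold). For these 4 genes the injected pools differed by at most 1.78-fold among themselves, and all but Ddx4 had buffer means under 100 CPM.

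Of the abundant genes below the range, Kdm3a, a demethylase of histone H3 lysine 9, measured 127, 118, 137 and 126 CPM in the buffer libraries and 42.7 CPM in the non-manipulated library (2.77-fold). Thoc2, of the TREX complex that exports mRNA, measured 151, 159.9, 159 and 169.9 CPM against 61.3 CPM (2.47-fold). Osbpl6, an oxysterol-binding protein, measured 142, 156, 141 and 172 CPM against 47.2 CPM (2.98-fold). In these 3 genes the coefficients of variation among the injected pools were 0.060, 0.047 and 0.097. Tcl1b4, of an oocyte-rich branch of the Tcl1 family, measured 485, 564, 511 and 670.1 CPM against 167 CPM (2.91-fold). Dtl, the adaptor through which a cullin ligase removes the licensing factor Cdt1, measured 178, 109, 183 and 76.4 CPM against 19.9 CPM (3.84-fold). Kmt5b, a methyltransferase of histone H4 lysine 20, measured 123, 72.9, 133 and 160.2 CPM against 29.9 CPM (2.44-fold). Here the buffer values themselves spread over 2.40-fold for Dtl and 2.20-fold for Kmt5b, whose log2 distance was -2.05 in place of -1.29 without buffer library 2. Lpgat1, Simc1, Rlf and Nvl were the others besides Trim21, at 25.5, 31.1, 44.5 and 50.7 CPM in the non-manipulated library and 2.02-fold to 3.39-fold below the lowest buffer library. None of the 15 passed the edgeR test (adjusted p of at least 0.769).

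Gene lists were read as the number of tested members outside the buffer range, beside 21.8% above and 16.3% below over all genes, and as the median log2 ratio of the non-manipulated library to the buffer mean, which was -0.19 over all genes and -0.02 over those of at least 100 CPM. The shares above and below changed with level. At a buffer mean of 1 to 10 CPM, 17.6% of the genes lay above and 11.7% below. At 10 to 100 CPM the shares were 21.3% and 21.1%, and at 100 to 1000 CPM 19.7% and 21.6%. From 1000 CPM they were 8.91% and 24.8%. List members given besides those at least 2-fold outside were picked after their values were seen. In 7 lists, 1 member (plasma membrane repair, 2) had a buffer mean under 1 CPM and was tested only because of its level in the non-manipulated library. Where 1 buffer library moved a member's distance by over 1.5-fold, the log2 distance from the nearest buffer library is given without that library. Each such member then lay farther from the range, as it had to, because fewer libraries make a narrower range.

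**Figure D3:**
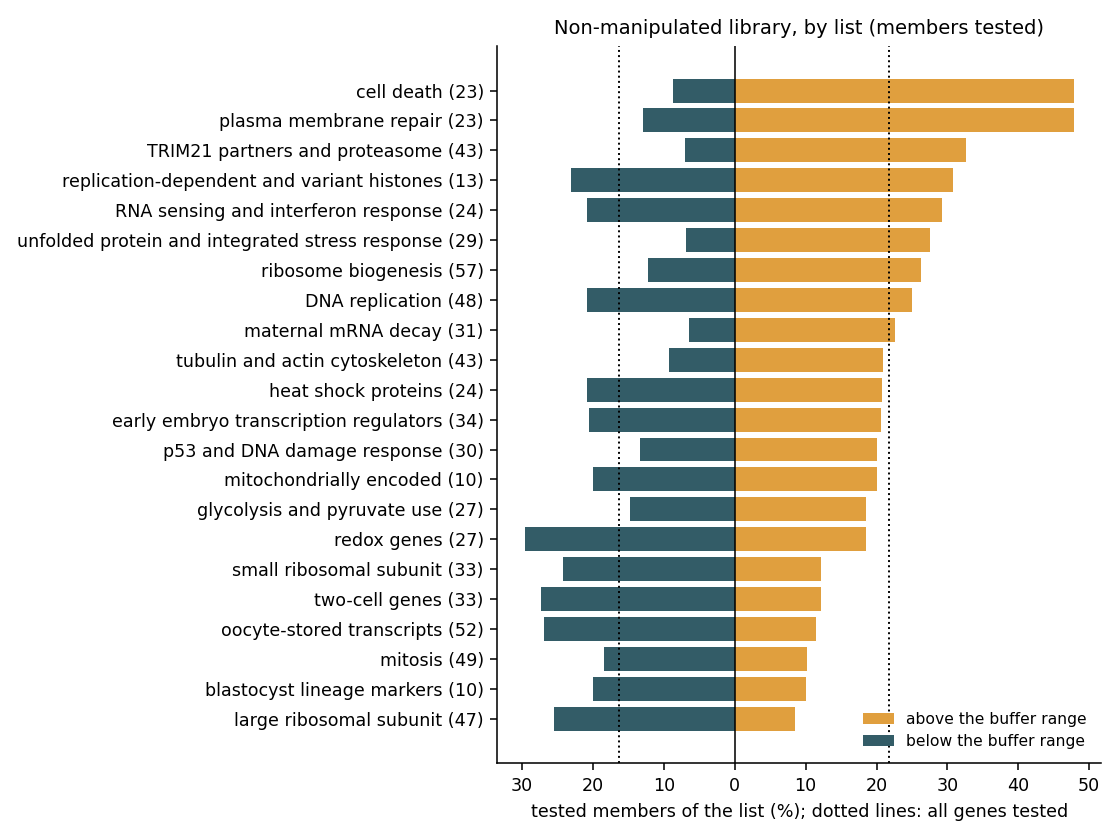
Bars give the percentage of tested members of each list (number in brackets, lists with at least 10 tested members) for which the non-manipulated library lay above (right) or below (left) all 4 buffer libraries. Dotted lines mark all genes tested, 21.8% above and 16.3% below. Cell death and plasma membrane repair reach 47.8% above, and the large ribosomal subunit has the lowest share above, 8.51%.

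Transcripts that the oocyte stores were more often below than above the range. Of 52 tested members, 6 (11.5%) were above and 14 (26.9%) below, with a median of -0.24 beside -0.19 over all genes. Genes of high level leaned the same way. Of the 101 with a buffer mean of at least 1000 CPM, 8.91% lay above and 24.8% below. The list was not compared with genes of matching level. The sum of the list was 58569, 76515, 66397 and 90864 CPM in buffer libraries 1 to 4 and 51291 CPM in the non-manipulated library, the lowest of the 5. Khdc1b, an oocyte gene of the Khdc1 family, measured 2105, 2863, 3151 and 2166 CPM against 1534 CPM. Oosp1, an oocyte-secreted protein, measured 659, 755, 853 and 921 CPM against 492 CPM. Each of these lay below the range by less than 1.5-fold. Zp2 and Zar1 were at least 2-fold below, Zar1 at a log2 distance of -2.24, and -4.38 without buffer library 2. Kpna7, the importin alpha of oocytes and early embryos, was at least 2-fold above, at 11.8, 49.7, 19.3 and 29.3 CPM against 106 CPM (2.13-fold, a log2 distance of 1.09, and 1.86 without buffer library 2). The genes of maternal mRNA decay, which include the CCR4-NOT deadenylase, had 7 of 31 tested members above and 2 below, a median of 0.14 and none at least 2-fold outside.

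Genes of the 2-cell stage were also more often below. Of 33 tested members, 4 were above and 9 below, with a median of -0.44, and the sum was 2700, 3650, 3464 and 3085 CPM in the buffer libraries against 2552 CPM. Zscan4d, which marks the brief 2-cell transcription programme, measured 101, 332, 302 and 207 CPM in the buffer libraries and 98.8 CPM in the non-manipulated library, next to buffer library 1. Its log2 distance was -0.03, and -1.07 without buffer library 1. Pramel7, of the PRAME family, measured 365, 491, 398 and 584 CPM against 268 CPM. Usp26, a deubiquitinase, measured 102, 68.3, 28.6 and 61.4 CPM against 11.3 CPM (2.54-fold below), and Usp17la measured 20.1, 9.25, 23.2 and 1.90 CPM against 0.308 CPM (6.16-fold below). The log2 distance of Usp26 was -1.35, and -2.45 without buffer library 3, and that of Usp17la -2.62, and -4.92 without buffer library 4. Its relative Usp17lb, the member with the highest level, lay inside the range at 904 CPM against 651 to 948 CPM. The Usp17l genes are near-identical copies, so reads may be split among them. Buffer library 1 was the lowest injected pool for the sum and for Zscan4d, and it lay close to the pool without injection in both.

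The regulators of transcription in the early embryo had as many tested members above as below, 7 each of 34, with a median of -0.11. Gata3, a factor of the trophectoderm, measured 8.04, 7.86, 6.23 and 6.12 CPM against 16.8 CPM (2.08-fold above). Myc measured 32.1, 12.8, 7.69 and 24.2 CPM against 0.440 CPM, which rests on 10 counts (17.5-fold below), a log2 distance of -4.13, and -4.86 without buffer library 3. Tead1, a partner of YAP, measured 22.7, 7.53, 13.6 and 7.34 CPM against 2.16 CPM (3.41-fold below). Sall4, a pluripotency factor of high level, measured 666, 555, 457 and 543 CPM against 754 CPM. Of the 10 tested blastocyst lineage markers, 1 was above and 2 were below, with a median of -0.64. That 1 was Pdgfra, a marker of primitive endoderm, which had 13.3 CPM in the non-manipulated library and 1.12 CPM in buffer library 3 alone among the buffer libraries (log2 distance 3.58, and 6.18 without it). With the filter on the buffer mean none of 9 tested markers was above.

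RNA sensing and interferon genes were examined because an mRNA made outside the embryo was injected. Of 24 tested members, 7 were above and 5 below, with a median of 0.01, and the sum was 312, 246, 311 and 317 CPM in the buffer libraries against 349 CPM. Irf1, a transcription factor of the interferon response, measured 9.47, 5.13, 24.6 and 18.8 CPM in the buffer libraries and 0 in the non-manipulated library (at least 38.9-fold higher in the lowest buffer library). Stat2, of the interferon-activated complex, measured 27.5, 7.58, 20.4 and 15.1 CPM against 2.02 CPM (3.74-fold below). Bst2, an interferon-induced protein that tethers virus particles, measured 28.0, 22.3, 18.4 and 23.4 CPM against 4.79 CPM (3.83-fold below). These 3 and the low Oasl1 were the members at least 2-fold below. Without buffer library 2 the log2 distances were -6.18 in place of -5.28 for Irf1, -2.89 in place of -1.90 for Stat2 and -5.06 in place of -2.54 for Oasl1. At least 2-fold above were the adaptor Mavs and the NF-kB subunits Nfkb1, at 6.09, 0, 7.35 and 0.0612 CPM against 26.3 CPM (3.59-fold), and Rela, at 0.0476 to 1.72 CPM against 8.97 CPM (5.22-fold, a log2 distance of 2.38, and 5.23 without buffer library 3). Rela had a buffer mean under 1 CPM, and with the filter on the buffer mean 6 of 23 members were above and 5 below, with a median of -0.06. Of 40 listed genes, 16 were below the level for testing, Mx1 with 0 counts in all 5 libraries.

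TRIM21 partners and the proteasome had 14 of 43 tested members above the range and 3 below, a median of 0.11 and none at least 2-fold outside. Their sum was 7748, 7871, 7181 and 8202 CPM in the buffer libraries and 8712 CPM in the non-manipulated library, the highest of the 5. Psma5, of the core particle, measured 66.3, 52.3, 54.0 and 86.6 CPM against 143 CPM (1.65-fold above). Psmd14, the deubiquitinase of the cap, measured 399.96, 353, 424 and 439 CPM against 538 CPM (1.23-fold above). Psmd6, of the cap, was among the 3 below, at 121, 123, 102 and 131 CPM against 78.0 CPM. The members above the range were thus spread over core and cap at distances under 1.7-fold. The list did not hold the assembly chaperone Psmd10, described above. It had no count in the non-manipulated library and 14.6 to 21 CPM in the buffer libraries.

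The plasma membrane repair list, chosen because a needle had opened the membrane of the buffer embryos, had 11 of 23 tested members above and 3 below, with a median of 0.37. Besides Pdcd6, its partner Pdcd6ip (Alix) measured 3.81, 8.01, 12.3 and 3.3 CPM against 34.2 CPM (2.78-fold above). Its log2 distance was 1.48, and 2.09 without buffer library 3. Chmp1a, of the ESCRT-III filaments that pinch off wounds, measured 0.0952, 0.480, 0 and 0.184 CPM against 12.6 CPM (log2 distance 4.72, and 6.11 without buffer library 2). Capn2, a calpain protease, had no count in any buffer library and 14.1 CPM in the non-manipulated library (at least 76.7-fold higher than the highest limit of 3 counts in a buffer library). Chmp1a and Capn2 had buffer means under 1 CPM, and with the filter on the buffer mean 9 of 21 members were above and 3 below, with a median of 0.33, beside 18.7% above over all genes. Dysf, the membrane patching protein dysferlin, went the other way at 16.4, 3.98, 4.98 and 4.41 CPM against 1.19 CPM (3.35-fold below). Members of higher level were closer to the range: Chmp2a measured 218, 214, 223 and 267 CPM against 290.5 CPM (1.09-fold above), and the annexin Anxa7 measured 218, 164, 234 and 169 CPM against 129 CPM (1.27-fold below).

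Cell death genes had 11 of 23 tested members above and 2 below, with a median of 0.56. Bid, which passes a death signal to mitochondria, measured 84.4, 44.7, 69.9 and 48.0 CPM in the buffer libraries and 175 CPM in the non-manipulated library (2.07-fold above). Mcl1, which protects cells, measured 116, 139, 142 and 208 CPM against 223 CPM (1.07-fold above). Genes that promote and genes that restrain cell death were both among those above. Bok was also at least 2-fold above at a low level (4.88 CPM), with a log2 distance of 1.06, and 4.26 without buffer library 2. Its buffer mean was under 1 CPM, and with the filter on the buffer mean 10 of 22 members were above and 2 below, with a median of 0.51. Below were Bik, described above, and Ripk1, a kinase of death receptor signalling, at 9.85, 3.4, 32.3 and 12.4 CPM against 3 counts (ratio of the lowest buffer library 25.8, interval 8.48 to 128). The log2 distance of Ripk1 was -4.69, and -6.24 without buffer library 2.

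The p53 and DNA damage list had 6 of 30 tested members above and 4 below, with a median of 0.08. Ccng1, a p53 target, measured 8.47, 29.5, 57.3 and 10.9 CPM against 0.264 CPM, which rests on 6 counts (32.1-fold below). Gadd45g, a stress gene, measured 1.14, 9.35, 42.1 and 17.3 CPM against 0 (at least 8.65-fold higher in the lowest buffer library). In both genes buffer library 3 was the highest and buffer library 1 the lowest, and without buffer library 1 the log2 distance of Gadd45g was -6.15 in place of -3.11. The unfolded protein and integrated stress list had 8 of 29 above and 2 below, with a median of 0.05 and Atf6, a sensor of the endoplasmic reticulum, at least 2-fold above (10.2, 0, 5.80 and 0.184 CPM against 28.7 CPM, a log2 distance of 1.49, and 2.31 without buffer library 1). Heat shock proteins had 5 of 24 above and 5 below, with a median of -0.17 and none at least 2-fold outside. Redox genes had 5 of 27 above and 8 below, with a median of -0.13. Gclm, of glutathione synthesis, measured 11.8, 24.2, 16.1 and 24.5 CPM against 2.81 CPM (4.19-fold below), and Hmox1, haem oxygenase, measured 13.1, 1.34, 17.6 and 2.14 CPM against 1 count (ratio 30.5, interval 5.05 to 1248). The log2 distance of Hmox1 was -3.35, and -4.01 without buffer library 2.

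The cell cycle lists gave no common direction. Mitosis genes had 5 of 49 tested members above and 9 below, with a median of -0.10. Spc24, of the kinetochore, measured 16.2, 9.45, 18.8 and 10.7 CPM against 38.1 CPM (2.02-fold above), and Wee1, which holds Cdk1 inactive, measured 25.7, 16.6, 28.5 and 20.2 CPM against 5.67 CPM (2.93-fold below). DNA replication genes had 12 of 48 above and 10 below, with a median of -0.14. Subunits of the MCM helicase lay on both sides: Mcm3 measured 15.8, 48.8, 34.9 and 8.08 CPM against 119 CPM (2.44-fold above), and Mcm4 measured 52.2, 37.5, 110 and 43.2 CPM against 7.83 CPM (4.78-fold below). Pole2, of the leading-strand polymerase, measured 46.2, 33.5, 37.7 and 43.6 CPM against 9.94 CPM (3.37-fold below). So 2 subunits of the same ring stood at opposite ends of the 5 libraries.

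Lists of ribosomal, mitochondrial and other housekeeping genes were counted in the same way. Of the small ribosomal subunit 4 of 33 tested members were above and 8 below (median -0.09), and of the large subunit 4 of 47 were above and 12 below (median -0.04), with none at least 2-fold outside in either. With CPM of plain totals the small subunit counts were 6 and 6 and those of the large subunit 7 and 12. Ribosome biogenesis had 15 of 57 above and 7 below (median 0.10), with the assembly factor Bop1 as the only member at least 2-fold outside, at 12.3, 2.73, 9.32 and 10.4 CPM against 3 counts (ratio 20.7, interval 6.74 to 103), a log2 distance of -4.37, and -6.13 without buffer library 2. Mitochondrially encoded genes had 2 of 10 above and 2 below (median -0.11), and their sum was 30292 to 32941 CPM in the buffer libraries and 30841 CPM in the non-manipulated library. Glycolysis and pyruvate use had 5 of 27 above and 4 below (median -0.13), and the tubulin and actin cytoskeleton 9 of 43 above and 4 below (median 0.15), with none at least 2-fold outside in these 3 lists. Histones had 4 of 13 above and 3 below, with 1 member at least 2-fold above. The median of the histones was 0.005 and turned negative with DESeq2 size factors. With the filter on the buffer mean, 3 of 12 histones were above, 3 below and 0 at least 2-fold above, with a median of -0.12. H3f3b, the most abundant of them, encodes the replacement histone H3.3 and measured 8591, 10888, 9339 and 14371 CPM against 6536 CPM (1.31-fold below). Of the markers of other cells, 3 cumulus, 2 sperm, 4 oviduct and 2 blood genes were tested. Tnfaip6, a cumulus matrix gene, was the only one at least 2-fold outside, at 21.4, 1.20, 5.50 and 5.20 CPM against 0 (at least 9.09-fold higher in the lowest buffer library, a log2 distance of -3.18, and -5.29 without buffer library 2). Whether cumulus cells had a part in any difference was not tested.

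The spread among the 4 injected pools depended on the level. The median coefficient of variation was 0.635 over 13583 genes that averaged at least 1 CPM in the 5 libraries and in the buffer group. It was 1.13 over 6243 genes of 1 to 10 CPM, 0.464 over 5379 genes of 10 to 100 CPM, 0.229 over 1860 genes of 100 to 1000 CPM and 0.191 over 101 genes of 1000 CPM and more. In the lowest class 54.1% of the genes had no count in at least 1 buffer library, in the next 3.72%, and in the classes from 100 CPM none. The highest buffer library exceeded the lowest by a median of 40.2-fold at 1 to 10 CPM, 3.07-fold at 10 to 100 CPM, 1.68-fold at 100 to 1000 CPM and 1.48-fold from 1000 CPM. A library with fewer than 3 counts was again set to 3 counts, and the ratio of such a gene is a lower bound. The median gap between the highest and lowest injected pool was thus over 2-fold in the classes under 100 CPM and under 2-fold from 100 CPM.

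**Figure D4:**
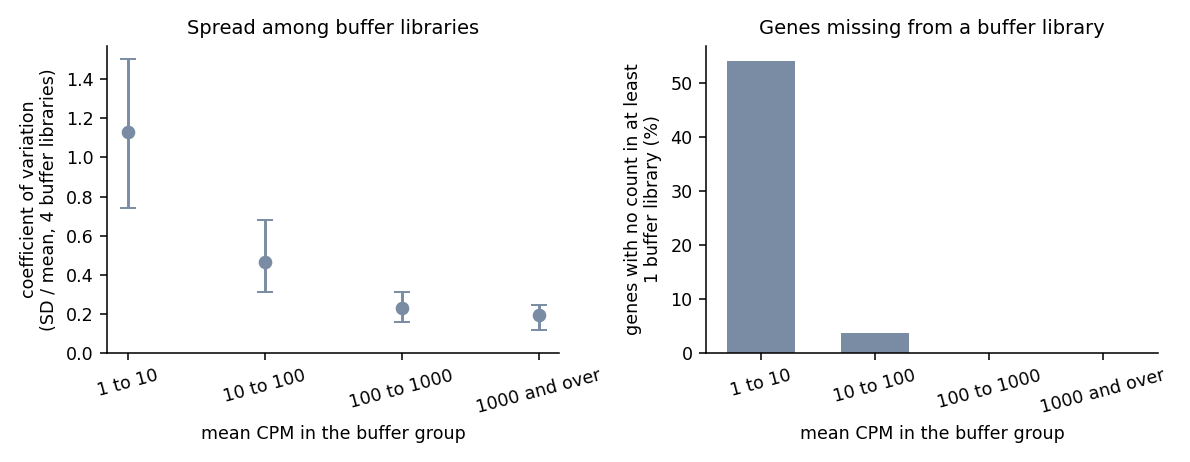
The left panel gives the coefficient of variation among the 4 buffer libraries by mean level (points, medians; bars, quartiles), and the right panel the percentage of genes with no count in at least 1 buffer library. The median falls from 1.13 at 1 to 10 CPM to 0.191 at 1000 CPM and over, and the percentage from 54.1% to 0.

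Genes with a buffer mean of at least 100 CPM were ranked by spread, leaving out predicted models, clone names and Rik names. Those with the widest spread after Trim21 were Dhx32, Ing3, Rheb, Abcf2 and Rnf113a2. Dhx32, a helicase, measured 186, 17.1, 178 and 46.9 CPM in buffer libraries 1 to 4 and 102 CPM in the non-manipulated library. Ing3, a reader of histone methylation, measured 51.8, 208, 103 and 39.5 CPM against 167 CPM. Rheb, the GTPase that activates mTORC1, measured 124, 284, 181 and 574 CPM against 316 CPM. Different buffer libraries were high in each, and the non-manipulated value fell between them. Abcf2 (30.5 to 215 CPM against 87.8 CPM) and Rnf113a2 (57.9 to 252 CPM against 144 CPM) did likewise. The genes with the tightest spread were Fxr1, an RNA-binding relative of FMRP, at 319, 331, 331 and 326 CPM (coefficient of variation 0.018), Atp5f1 of ATP synthase at 165, 158, 161 and 163 CPM, Seh1l of the nuclear pore at 349.6, 367, 366 and 359 CPM, Jmy, Atp13a3 and Cdc5l. The non-manipulated library lay outside the range of all 6 of these genes, 4 below and 2 above, at 1.03-fold to 1.25-fold, but with CPM of plain totals it fell inside the range of Fxr1 and Jmy. Where the injected pools agreed within a few percent, a small distance was enough to leave their range.

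The most abundant transcripts were those of the egg and of the mitochondrion. Per kilobase of exon, mt-Cytb (cytochrome b) led with 20326, 19157, 18504 and 18672 CPM per kilobase in buffer libraries 1 to 4 and 18612 in the non-manipulated library, which lay inside the range. Dppa3, the maternal factor that protects the egg's DNA methylation, followed with 14952, 17331, 13485 and 24755 CPM per kilobase against 14532. For both leading transcripts the pool without injection lay inside the range of the injected pools, whose highest Dppa3 value was that of buffer library 4. Omt2b and Omt2a, transcripts of the ripening oocyte, were below the range, at 7870 to 13321 against 6009 CPM per kilobase for Omt2b and 6145 to 10640 against 4832 for Omt2a. Tcl1, which enhances Akt signalling in the early embryo, was also below, at 5768, 8514, 7683 and 8051 CPM per kilobase against 4363. The widest gap among the first 10 was that of Cks2, a cofactor of cyclin-dependent kinases, at 2421, 3001, 2312 and 3940 CPM per kilobase against 1299 (1.78-fold below). Gm5612, Oog3 and mt-Nd1 lay inside the range. Of the 20 transcripts of highest level per kilobase, 2 lay above and 7 below the range.

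**Figure D5:**
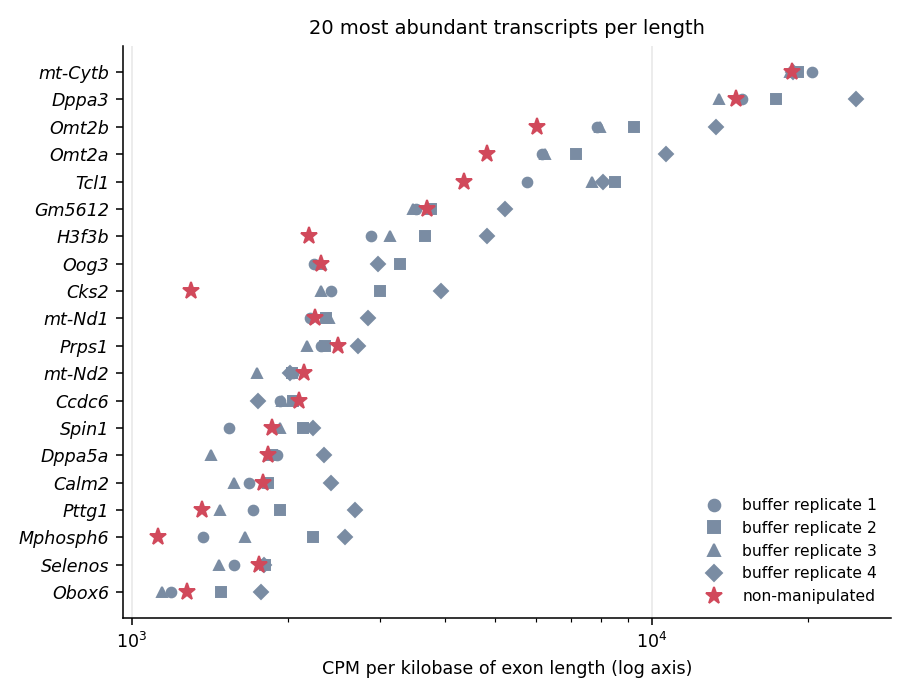
Points give CPM per kilobase of exon on a log axis for the 20 most abundant transcripts in each buffer library (grey) and in the non-manipulated library (red star). Cks2 shows the widest gap, 1299 against 2312 in the lowest buffer library, and buffer library 4 is often the highest.

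By counts, mt-Cytb was first in buffer libraries 1 to 3 and in the non-manipulated library, with 2.16% to 2.40% of the counts, and Dppa3 in buffer library 4 with 2.05%. The 10 leading genes took 11% to 13.4% of the counts of the buffer libraries and 10.1% of those of the non-manipulated library, and the 100 leading genes 27.5% to 32.6% against 26.3%. Of the 100 leading genes, 68 were shared by all 5 libraries. The non-manipulated library shared 86, 84, 82 and 77 of its 100 with buffer libraries 1 to 4, while pairs of buffer libraries shared 79 to 85. Among the 100 genes of highest mean CPM, buffer library 4 was the highest of the 5 libraries for 68 genes, and the lowest values were most often in buffer library 3 (42 genes) and the non-manipulated library (24 genes). Among the abundant transcripts, then, the library that stood highest most often was an injected one, also the one with the smallest total count and the least Trim21. In pools of whole embryos fewer cells and less RNA per cell cannot be told apart.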

How the data were processed

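RNA was sequenced from pools of mouse embryos after a low-input library preparation. Per the labels and the study's methods, the authors trimmed reads with Trimmomatic, checked them with FastQC 0.11.9, aligned them to GRCm38 with HISAT2 and counted them per Ensembl gene. The deposited counts were used as they are; the deposited RPKM values were not used. For the strand setting, the sources used here say nothing. Of 52636 identifiers, 52489 had a GENCODE M21 name (99.99% of the counts), and exons of another gene overlap 21 of the 74 genes named by the rule given below. Genes named besides the rule are not in that count, and some of them, such as Nvl and Kmt5b, also overlap another gene. Analyses used edgeR 4.0.16, limma 3.58.1 and DESeq2 1.42.0 in R 4.3.3, and Python 3.11.15 with scipy 1.17.1. Genes that averaged 1 CPM or more were kept, and scripts were tested on simulated data. The members and 26 lists were chosen with earlier results of these data known. The rule named the 12 genes farthest outside the buffer range per direction (mean of at least 10 CPM, no predicted models, clone or Rik names), up to 3 list members per direction (at least 2-fold outside, mean of at least 5 CPM), the 10 most abundant per kilobase, the 6 widest and 6 tightest among the buffer libraries, Trim21 and the Zp genes. The same kinds of names were left out for the widest and tightest. Alternatives were other scalings, filters, folds and tools, and leaving out each buffer library.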

Additional observations from a re-analysis of the deposited data

Results flagged for a closer look

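Of 102 values examined over the 4 buffer libraries, 6 had a library far from the other 3 by Dixon's criterion, which chance reaches in about 1 of 20 groups. Buffer library 1 stood apart in 4 of them. It was high for Dysf (16.4 CPM against 3.98 to 4.98 in the others), for Tslp (58.1 CPM against 21.8 to 23.9) and for Wdr72 (10.1 CPM against 0), and low for Primpol (2.09 CPM against 11.9 to 13.4). Buffer library 4 was high for Gm5612 (1956 CPM against 1305 to 1409), one of the most abundant transcripts. Buffer library 2 was low for the summed RNA sensing and interferon genes (246 CPM against 311 to 317). For Wdr72, buffer library 1 alone set the upper end of the buffer range. The non-manipulated library lay above it at a log2 distance of 2.10, and of 7.88 without buffer library 1.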

How the results depend on the processing

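The single non-manipulated library gives no spread for its group, and a count of 0 there allows up to 0.132 CPM. No paired analysis was possible because the groups share fewer than 2 replicate numbers. With a filter on the buffer mean (at least 1 CPM, chosen after seeing the data), 382 genes were at least 2-fold above. Without a filter, 1307 genes were at least 2-fold above and 5953 above the buffer range. At a mean of at least 10 CPM there were 159 and 357 genes at least 2-fold above and below, 1710 above and 1460 below, and a median coefficient of variation of 0.368. A fold of 1.5 gave 1231 above, and a fold of 4 gave 319 above and 455 below. Leaving out each buffer library gave 1016 to 1136 genes at least 2-fold above, 943 to 1224 at least 2-fold below, 3580 to 3771 above, 2773 to 3102 below, and a coefficient of variation of 0.563 to 0.613; fewer libraries make a narrower range. DESeq2 called 12 higher and 596 lower where edgeR called 0, and edgeR called 0 under every other setting tried, each left-out library included. Trim21's bound was 12.81 to 14.20 on the log2 scale over the left-out libraries (chosen after seeing the data), 14.20 without buffer library 4. Of the alternatives for 94 values of named genes, 528 stayed within the spread between replicates, 36 moved and 0 reversed. Leaving out a buffer library narrows the range, so apart from rescaling those alternatives could not reverse a position. With CPM of plain totals, Zp3, Fxr1 and Jmy lay inside the buffer range. The medians of the histone and oviduct lists changed sign with the scaling. Those of the histone and RNA sensing lists changed sign with the filter on the buffer mean.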
